A study of Mus musculus with 45 samples.

Results

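Glutathione transferases join the tripeptide glutathione to reactive, mostly electrophilic compounds, which makes those compounds soluble and ready for export from the cell. The soluble enzymes are grouped into classes named by Greek letters, among them alpha (Gsta), mu (Gstm), pi (Gstp) and omega (Gsto), and each works as a pair of subunits. The microsomal enzymes (Mgst) belong to an unrelated family of membrane proteins that also handle lipid peroxides and leukotrienes. In the brain, glutathione transferases of the mu and pi classes are known from astrocytes and other glia.

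The genes described are Gsta4, Gstm1, Gstm2, Gstm5, Gstp1, Gsto1, Mgst1 and Mgst3, which are 8 of the 23575 gene rows of the deposited gene table. They were picked by name, with their levels in the time courses, in the wild-type medium control and in stem cells against progenitors already in view. In those 3 settings their values are therefore given as a description with no test. Every other comparison shares libraries with those settings in at least 1 group, so the 8 genes are described without a test throughout, and tests are given for other genes only.

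The study used Oxford Nanopore long-read RNA sequencing to follow the reprogramming of mouse neural progenitor cells (NPCs) into pluripotent cells. The NPCs were derived from O4G embryonic stem cells (ESCs), an R1 line with a GFP reporter under the Oct4 promoter, and grew in NPC medium with EGF and FGF-2. They were wild type (WT) or stably transfected with doxycycline-inducible reprogramming factors in 1 of 2 systems, OKMS or OKS, so all NPC groups share the reporter line and the uninduced OKMS and OKS cells carry the factor constructs. Induced cells grew in FBS-LIF medium with doxycycline (hereafter serum medium). Part of the late cultures had been changed to 2i-LIF, which holds mouse stem cells in the naive state with inhibitors of GSK3 and MEK and no serum.

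There were 22 libraries made by direct cDNA sequencing on R9 flow cells (R9 libraries) and 23 made by PCR cDNA sequencing on R10 flow cells (R10 libraries). The NPC group had 4 libraries in each chemistry, namely WT replicates 1 and 2 with OKMS and OKS in R9, and WT replicates 2 and 3 with OKMS and OKS in R10. WT cells kept for 2 days in serum medium with doxycycline had 1 library in R9 and 2 in R10. Induced cells in serum medium were sampled in R9 at days 2, 4, 6, 10, 14 and 20 in both systems, and in R10 at days 2, 6 and 18 in both systems and at days 4 and 10 in OKMS only. The 2i-LIF libraries were OKMS day 14, OKMS day 20 and OKS day 20 in R9, and OKMS and OKS day 18 in R10. ESCs in 2i-LIF had 2 R9 libraries (O4G and R1) and 7 R10 libraries (2 of O4G, 2 of R1Clone3 and 3 of R1, 1 of them with no replicate number). Each system had 1 library per day and chemistry, and nothing in the labels says that numbered replicates came from separate cultures, so the tests measure the spread between these libraries, which may be technical.

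Depth was 447990 to 1390424 reads in the R9 libraries and 566599 to 4236442 in the R10 libraries, and levels are in CPM, a gene's reads scaled to the library's total, in which 3 reads over the 4 R9 NPC libraries are worth 0.963 CPM. The labelled stem cells were checked on marker genes. The summed level of 5 ESC markers (Pou5f1, Nanog, Zfp42, Esrrb, Dppa5a) was 10.8 to 26.3 CPM in NPC libraries and 9887 to 12664 CPM in ESC libraries. Astrocyte markers (Gfap, Aqp4, Aldh1l1, S100b, Slc1a3, Aldoc) summed to 1086 to 1745 CPM in NPC and 40.7 to 99.6 CPM in ESC libraries. Most of the NPC sum was Aldoc, at 1293 ± 108 CPM in R10 NPC (n = 4). Slc1a3 was at 165 ± 32.2 CPM and S100b at 111 ± 64.6 CPM there, while Gfap (3.93 ± 1.84 CPM) and Aqp4 (0.146 ± 0.292 CPM) were low. Of the astrocyte markers, Aldh1l1 alone had a higher mean in ESC, at 3.54 ± 1.85 CPM in R10 NPC (n = 4) and 16.1 ± 4.86 CPM in R10 ESC (n = 7). The share of mitochondrial reads was 0.31% to 0.99% in R9 libraries. In R10 it was 0.124% to 0.319% in the WT NPC, treated WT and unnumbered R1 libraries and 0.73% to 2.35% in the others. Whether fewer cells of a kind or less RNA per cell lies behind a level cannot be told apart in bulk libraries.

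Several members lie beside near copies, and how far reads can be told apart depends on the sequence. On GENCODE M21 (GRCm38), Gstp1 lies at chr19:4035407-4037985 on the minus strand and Gstp2 at chr19:4040285-4046023 on the same strand, and their coding sequences are identical at 618 of 630 bases. The first 120 coding bases of both are shown because 6 of the differences between these neighbours lie there, in capitals.
Gstp1: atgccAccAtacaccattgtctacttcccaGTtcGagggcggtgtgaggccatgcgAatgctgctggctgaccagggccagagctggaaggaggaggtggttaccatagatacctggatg
Gstp2: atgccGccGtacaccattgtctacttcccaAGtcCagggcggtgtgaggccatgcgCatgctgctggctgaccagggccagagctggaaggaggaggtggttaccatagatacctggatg
Gstm1 (chr3:108012255-108017973) and Gstm2 (chr3:107981702-107986453), both on the minus strand of the mu cluster, are identical at 562 of 654 coding bases, and 18 differences, in capitals, fall in the first 120.
Gstm1: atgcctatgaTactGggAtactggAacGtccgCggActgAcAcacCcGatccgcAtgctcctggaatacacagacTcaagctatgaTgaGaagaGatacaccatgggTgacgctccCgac
Gstm2: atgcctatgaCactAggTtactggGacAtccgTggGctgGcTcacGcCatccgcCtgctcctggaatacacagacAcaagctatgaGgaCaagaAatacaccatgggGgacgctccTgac

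The authors' counting decided which gene of a pair a read went to, so a small value of Gstp2 or Gstm2 beside a large value of its neighbour is uncertain. The same holds for Gstm3, which is closer to Gstm1 than Gstm2 is, at 585 of 654 identical coding bases. Its level was 0 in R10 NPC libraries and 22.7 ± 5.38 CPM (n = 7) in R10 ESC. The deposited Gstp2 level was 0 to 0.879 CPM in R10 NPC libraries and 33.8 to 65.0 CPM in R10 ESC libraries. Some reads were also placed by the authors in a joined gene that spans Gstm4, Gstm2 and Gstm1, at 0 to 91.5 CPM, with the highest value in OKS at day 10 of the R9 series. The other members are farther apart, with identities of 69.6% for Gstm1 and Gstm5, 70.7% for Gstm2 and Gstm5 and 44.7% for Mgst1 and Mgst3. Gsta4 (chr9:78182774-78209349, plus strand), Gstm5 (chr3:107895821-107898686, plus), Gsto1 (chr19:47854970-47864790, plus), Mgst1 (chr6:138140316-138156755, plus) and Mgst3 (chr1:167371966-167393841, minus) complete the set.

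The stretch of the Gstp1 promoter up to the first bases of its main deposited transcript is shown because Gstp1 had the highest mean level per length of the 8 genes in progenitors and differed 32.6-fold between WT replicates. It is from RefSeq (GRCm38.p6), chr19:4037980-4038162 on the minus strand, and the last 6 bases lie in that transcript. Capitals mark a TGAGTCA motif, the recognition sequence of AP-1 (Fos and Jun), at positions −74 to −68 from the RefSeq start.
Gstp1 promoter: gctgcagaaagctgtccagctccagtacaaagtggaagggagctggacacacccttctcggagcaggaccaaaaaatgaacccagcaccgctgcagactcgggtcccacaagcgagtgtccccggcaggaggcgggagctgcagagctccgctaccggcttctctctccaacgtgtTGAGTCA

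Of the 8 genes, 7 matched RefSeq promoter windows, 9 windows of 250 bases before to 50 bases after a start. On either strand, TGAGTCA was found in the windows of Gstp1 and Gstm5, 2 of 9 windows, and in 5.2% of all 32851 promoter windows. The core of the antioxidant response element, the Nrf2 recognition sequence, was searched as TGACNNNGC and found in the windows of Gstm5 and Mgst1, 2 of 9, against 12.4% of all windows. CACGTG, the E-box bound by Myc, was found in 0 of 9 and in 7.15% of all. The TGAGTCA and TGACNNNGC matches did not overlap. These are matches of letters in the windows, not measured binding. The main deposited transcripts of Gstm5 and Mgst1 start at −7757 and −356 bases from the RefSeq starts of the windows with matches, so those matches lie downstream of the deposited starts.

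Levels between genes are compared only per length, in TPM, which scales to transcript length as well, summed over a gene's deposited transcripts. In R10 NPC libraries Gstp1 had 1254 ± 807 TPM (SD, n = 4), Gstm1 338 ± 77.6, Gstm5 112 ± 38, Gsto1 93.6 ± 7.83, Mgst1 81.4 ± 13.1, Gsta4 36.5 ± 14.2, Mgst3 33.9 ± 10.1 and Gstm2 0.62 ± 0.772. Gstp1 ranged from 56.6 TPM in WT replicate 2 to 1811 TPM. Gstm5, Gsto1 and Mgst1 lay within 1 SD of their neighbours in that order, as did Gsta4 and Mgst3. In R10 ESC libraries the order was Gstp1 (1160 ± 197 TPM, n = 7) and Gsta4 (1070 ± 119), which overlapped, then Gsto1 (318 ± 139), Gstm1 (105 ± 37.7), Mgst3 (48.7 ± 7.02), Gstm2 (8.8 ± 3.85) and Gstm5 (6.79 ± 3.15), which overlapped, and Mgst1 (0.383 ± 0.75). Gsta4 thus moved from the sixth place to the second and Mgst1 from the fifth to the last. The place of Mgst1 in NPC is uncertain. In R10 NPC it had 290 ± 52.1 CPM and Gstm1 284 ± 57.3 CPM, with main transcripts of 1312 and 1381 bases. Its TPM was nevertheless far below that of Gstm1. The same held in R9 NPC, at 347 ± 57.7 and 346 ± 58.3 CPM, and the reason was not tested. In R9 the order in NPC was the same from Gstp1 to Gstm5, followed by Mgst1 (106 ± 26 TPM), Gsto1 (73.6 ± 10.5), Mgst3 (41.9 ± 12.8), Gsta4 (22.9 ± 17) and Gstm2 (1.27 ± 2.55).

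Stem cells were compared with progenitors in both chemistries. Gsta4, the alpha-class enzyme that conjugates the lipid peroxidation product 4-hydroxynonenal, read 22.4 (OKMS), 36.2 (OKS), 39.1 and 17.8 CPM (WT) in R10 NPC libraries. In the 7 R10 ESC libraries it ran from 871 to 1198 CPM with a median of 1074 in an O4G library. No ESC library came near the NPC range, and the difference in log2(CPM + 1) was 5.23 ± 0.18 (SE). In R9 it was 15.5 to 54.8 CPM in the 4 NPC libraries and 1168 and 1237 CPM in the ESC libraries, a difference of 5.64 ± 0.50.

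Gstm1, the main mu-class enzyme, was lower in stem cells. R10 NPC libraries read 315 (OKMS), 346 (OKS), 219 and 255 CPM (WT), and R10 ESC libraries 79.5 to 176 CPM, without overlap (−1.34 ± 0.22). R9 gave −1.81 ± 0.22, from 292 to 429 CPM in NPC and 78.6 and 120 CPM in ESC. The joined gene that spans Gstm4, Gstm2 and Gstm1 was higher in ESC. It was at 2.49 ± 1.1 CPM (n = 4) in R10 NPC and 40.8 ± 13.3 CPM (n = 7) in R10 ESC, and at 1.58 ± 1.33 (n = 4) and 33.2 ± 20.2 CPM (n = 2) in R9. Reads placed there are not in the Gstm1 values, so the Gstm1 difference may be overstated. Gstm5, a mu-class enzyme known from brain and testis, read 39.1, 56.1, 79.1 and 43.0 CPM in R10 NPC and 1.04 to 4.93 CPM in R10 ESC, a difference of −3.61 ± 0.29, and −2.87 ± 0.32 in R9. Gstm2 was low in every library, at most 11.2 CPM, and read 0 to 0.574 CPM in R10 NPC and 1.49 to 6.09 CPM in R10 ESC (1.99 ± 0.30). It passed the filter on low values in R10 only through the ESC libraries, which favoured a difference there, and it did not pass in R9.

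Gstp1, the pi-class enzyme, was not separated between the cell types. Its R10 NPC libraries read 674 (OKMS), 655 (OKS), 26.0 (WT replicate 2) and 850 CPM (WT replicate 3), against 547 to 779 CPM in ESC. The difference of 1.03 ± 0.67 rests on WT replicate 2, and without that library it was −0.15. In R9 it was −0.31 ± 0.29, with 487 to 1018 CPM in NPC and 493 and 554 CPM in ESC. Gsto1, the omega-class enzyme that reduces dehydroascorbate and glutathionylated proteins, was higher in stem cells, at 61.7 to 72.9 CPM in R10 NPC and 123 to 426 CPM in R10 ESC (1.90 ± 0.27; R9 1.26 ± 0.35).

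The microsomal genes moved apart. Mgst1, a membrane enzyme with peroxidase activity, read 326, 331, 218 and 286 CPM in R10 NPC and 0 to 6.72 CPM in R10 ESC, where the R1 library without a number was the highest and the other 6 stood at 0 to 0.896 CPM. The R10 difference was −7.36 ± 0.44. In R9 it was 298 to 413 CPM in NPC and 0 in both ESC libraries, at least 246-fold lower in ESC, taking 3 reads over the 2 libraries (1.41 CPM) as the floor. Mgst3, which acts on leukotriene and lipid peroxide substrates, was 8.18 to 16.4 CPM in R10 NPC and 16.5 to 26.6 CPM in R10 ESC (0.72 ± 0.19; R9 0.94 ± 0.40).

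The groups overlapped for Gstp1 in both chemistries. They did not overlap for the other members that passed the filter, of which Gstm2 (R10) and Mgst1 passed only through the group where they were high. Of all genes that passed, 50.9% of 15415 in R10 and 56.7% of 15746 in R9 had no overlap, and nothing is read from the members' share. With the CPM of all 8 genes summed, R9 NPC libraries held 1275 to 1975 CPM and R9 ESC libraries 1935 and 2090 CPM, and R10 NPC libraries 662 to 1530 CPM and R10 ESC libraries 1757 to 2479 CPM. The lowest sum is that of WT replicate 2, the library with little Gstp1. The mitochondrial share was 1.81% to 2.35% in 6 R10 ESC libraries, 0.153% and 0.273% in R10 WT NPC and 1.08% and 1.12% in OKMS and OKS NPC, and its part in these differences was not tested. Between the unnumbered R1 library (0.124%) and the WT NPC libraries alone, Gsta4 had 5.38, Gstm2 0.99, Gsto1 0.93, Mgst3 0.34, Gstm1 −1.56, Gstm5 −3.34 and Mgst1 −5.02, each in the direction of the difference over all libraries. Gstp1 had 2.36, which again rests on WT replicate 2. These libraries are part of the comparison over all libraries, so nothing is read from the shared direction.

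**Figure D1:**
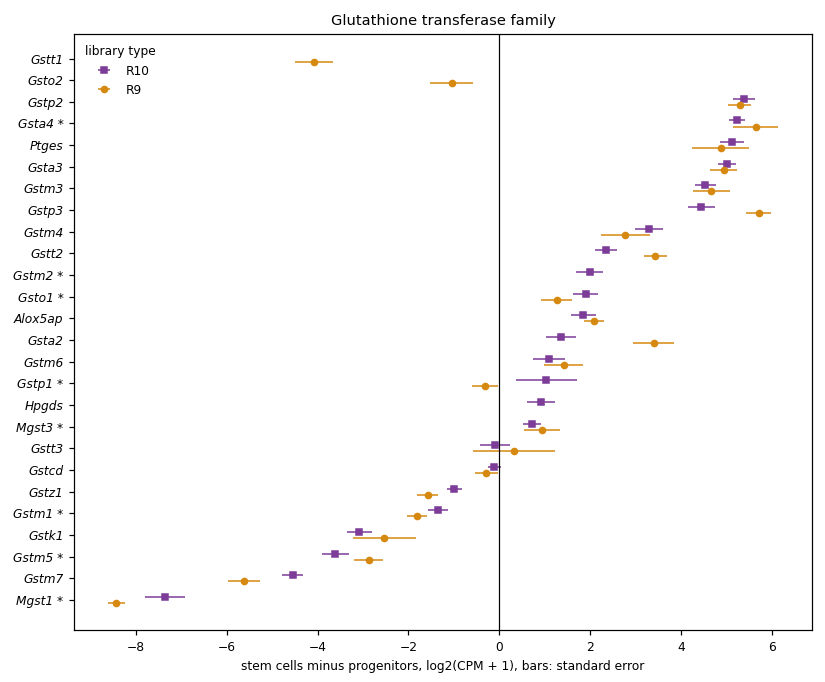
Difference in log2(CPM + 1) between ESC and NPC libraries for the measured glutathione transferase genes, with R9 and R10 values side by side and an asterisk on the 8 genes described in full. Gsta4 lies far to the higher side and Mgst1 and Gstm5 to the lower side in both chemistries. Genes of the mu class fall on both sides, as do the microsomal genes, and those of the alpha class lie on the higher side. Gsta2, Gsta3, Gstm3, Gstm4 and Gstm6 passed the filter on low values only through ESC, as did Gstm2 in R10. Gsta4 was chosen with these values in view, so nothing is read from the classes.

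The other 22 genes listed for the enzyme family were examined in the same fits, 20 of which were present. In R10, 10 of the 16 that passed the filter were higher in ESC and 2 lower by limma (adjusted p under 0.05 and a difference of at least 1), where 22.4% and 23.5% of all genes were called. The filter on low values bears on this count. None of the 10 higher genes would have passed it on the NPC libraries alone, so each passed through the ESC libraries where it was high. Of the 5 genes that passed in both groups taken alone, 0 were higher and 2 lower. For genes that passed in both groups no share over all genes is given, so nothing is read from such counts here or below. The filter favoured a difference in genes that passed only through the group where they were high. They are therefore described by their levels and differences with no p, here and in the comparisons that follow. Gstt1, at 9.92 ± 6.62 CPM (n = 4) in R10 NPC and 0.232 ± 0.317 CPM (n = 7) in R10 ESC, did not pass in R10, and in R9 passed only through NPC (−4.08 ± 0.41). Gstp2, the pi-class neighbour of Gstp1, had a difference of 5.39 ± 0.24, from 0.22 ± 0.439 CPM (n = 4) in NPC to 49.2 ± 11 CPM (n = 7) in ESC. Ptges, the inducible prostaglandin E synthase of the microsomal family, was at 0.545 ± 0.482 and 52.9 ± 16.3 CPM (5.12 ± 0.26), and Gsta3 at 0.11 ± 0.22 and 34.4 ± 3.48 CPM (5.01 ± 0.19). Gstm7, which passed in both groups, was lower in ESC (−4.55 ± 0.23, limma, adjusted p = 1.40e-10). In R9, 10 were higher and 4 lower of 17, where 17.6% and 18.4% of all genes were called, and of the 3 that passed in both groups 0 were higher and 1 lower. Gstm7 was at 69.1 ± 16.2 CPM (n = 4) in R9 NPC and 0.473 ± 0.669 CPM (n = 2) in R9 ESC (−5.62 ± 0.36), and Gstp3, Gstp2 and Gsta3, at 0 in all 4 R9 NPC libraries, were at least 53.6-fold, 39.5-fold and 31.7-fold higher.

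The genes that make, recycle and break down glutathione were also called in both directions, as all genes were, and nothing is read from their counts. In R10, 6 of 21 were higher and 3 lower, beside the 22.4% and 23.5% of all genes called in these directions. Cth, which makes the cysteine that glutathione needs, rose by 4.86 ± 0.25 (limma, adjusted p = 1.53e-10), and Gss, glutathione synthetase, by 2.36 ± 0.17 (limma, adjusted p = 9.66e-09). Ggt1, which breaks glutathione down outside the cell, passed only through ESC, at 0.146 ± 0.292 CPM in NPC and 6.19 ± 2.99 CPM in ESC, and Ggt7 only through NPC, at 12.1 ± 5.72 and 1.37 ± 1.55 CPM. Of the 16 genes that passed in both groups 4 were higher and 1 lower. R9 had 6 higher and 1 lower of 20. Among the peroxidases, peroxiredoxins and superoxide dismutases, 5 of 21 were higher and 5 lower in R10, which is close to the 22.4% and 23.5% of all genes, and 4 and 3 in R9, beside 17.6% and 18.4% of all genes. Gpx3, a secreted glutathione peroxidase, was at 0 in all 4 R10 NPC libraries and at least 118-fold higher in ESC. Gpx7, at 0.735 ± 1.08 CPM in NPC and 44.8 ± 13.9 CPM in ESC, also passed only through ESC, and extracellular Sod3, at 5.22 ± 3.62 and 0.0533 ± 0.141 CPM, only through NPC. Gpx8 was lower in ESC (−2.34 ± 0.22, limma, adjusted p = 1.72e-07). Of the 18 genes that passed in both groups 3 were higher and 4 lower. Of 23 Nrf2 partners, Nrf2 target genes and conjugate exporters, 5 were higher and 3 lower in R10 and 4 and 3 in R9, again near or below the shares of all genes. In R10 Nqo1 had 2.29 ± 0.29 and the exporter Abcc5 2.13 ± 0.23, while Ephx1, the microsomal epoxide hydrolase, had −2.83 ± 0.27 (limma, adjusted p = 4.69e-06, 6.04e-07 and 2.27e-07). Akr1b8, at 0.146 ± 0.292 CPM in NPC and 5.59 ± 1.67 CPM in ESC, passed only through ESC.

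The time course showed when these differences arose. Gsta4 in the R9 OKMS series read 16.2 CPM in NPC, then 145, 323, 508, 461, 668 and 692 CPM at days 2, 4, 6, 10, 14 and 20. The OKS series read 20.2 CPM, then 317, 393, 556, 698, 1343 and 646 CPM. Every induced library was above every NPC library, the difference from day 0 over both systems was 3.49 ± 0.32 at day 2 and 5.63 ± 0.32 at day 14, and the level at day 20 was below the 1168 and 1237 CPM of the ESC libraries, which OKS had passed at day 14. In R10 it read 147, 268, 481, 361 and 383 CPM in OKMS at days 2, 4, 6, 10 and 18, and 268, 555 and 872 CPM in OKS at days 2, 6 and 18.

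Mgst1 went up first and down later. In OKMS R9 it was 299 CPM in NPC, 971 at day 2, then 799, 519, 315, 169 and 6.16 CPM at day 20. In OKS it was 298 CPM in NPC, 1473 at day 2, 1426, 1700 and 1584 at days 4, 6 and 10, and then 811 and 53.2 CPM. Both systems were above their NPC level by day 2 and below it by day 20, and the fall was later in OKS. The difference from day 0 was 2.00 ± 0.58 at day 2 and −3.93 ± 0.58 at day 20. In R10 it was also highest early and lowest at day 18, with 1018, 717, 185, 295 and 31.2 CPM in OKMS and 1357, 1412 and 211 CPM in OKS. R10 OKMS was below its NPC level of 326 CPM at day 6, earlier than in R9, and higher at day 10 than at day 6.

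Gstm1 split by system. The R9 OKMS series read 331 CPM in NPC and 370, 259, 257, 294, 166 and 24.6 CPM from day 2 to day 20. The OKS series read 292 CPM in NPC and 555, 964, 1182, 1260, 376 and 48.1 CPM. OKS was thus above its NPC level up to day 14, OKMS was above it at day 2 only, and both were at their lowest at day 20 (−3.14 ± 0.49 from day 0). In R10 OKMS was below its NPC level of 315 CPM on every induced day, with 225 CPM at day 2, 181, 157 and 246 CPM at days 4, 6 and 10 and 122 CPM at day 18, and OKS read 346 CPM in NPC and 426, 777 and 155 CPM at days 2, 6 and 18. Gsto1 was the reverse, with its early high level in OKMS, at 60.6 CPM in NPC and 168, 384, 318, 248, 205 and 140 CPM, against 52.3 CPM and 77.5, 82.0, 115, 138, 334 and 121 CPM in OKS. In R10 OKMS it reached 647 CPM at day 6, against 69.5 CPM in OKS on that day.

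Gstp1 was at 666 (OKMS) and 541 CPM (OKS) in R9 NPC and lower in all 12 induced R9 libraries, from 216 to 482 CPM, with −0.92 ± 0.27 at day 2 and −1.44 ± 0.27 at day 20. Gstm5 was at 64.6 and 64.1 CPM in NPC and at 12.9 to 60.2 CPM in the induced libraries. Mgst3 was at 16.2 and 6.75 CPM in NPC and reached 62.8 (OKMS) and 88.4 CPM (OKS) at day 20, a difference of 2.71 ± 0.53, which is above the 31.2 and 19.5 CPM of the R9 ESC libraries. Gstm2 stayed at 0 to 5.65 CPM in OKMS and at 0 to 11.2 CPM in OKS. In this fit 10.7% of 19357 genes were called, 5.50% higher and 5.24% lower.

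**Figure D2:**
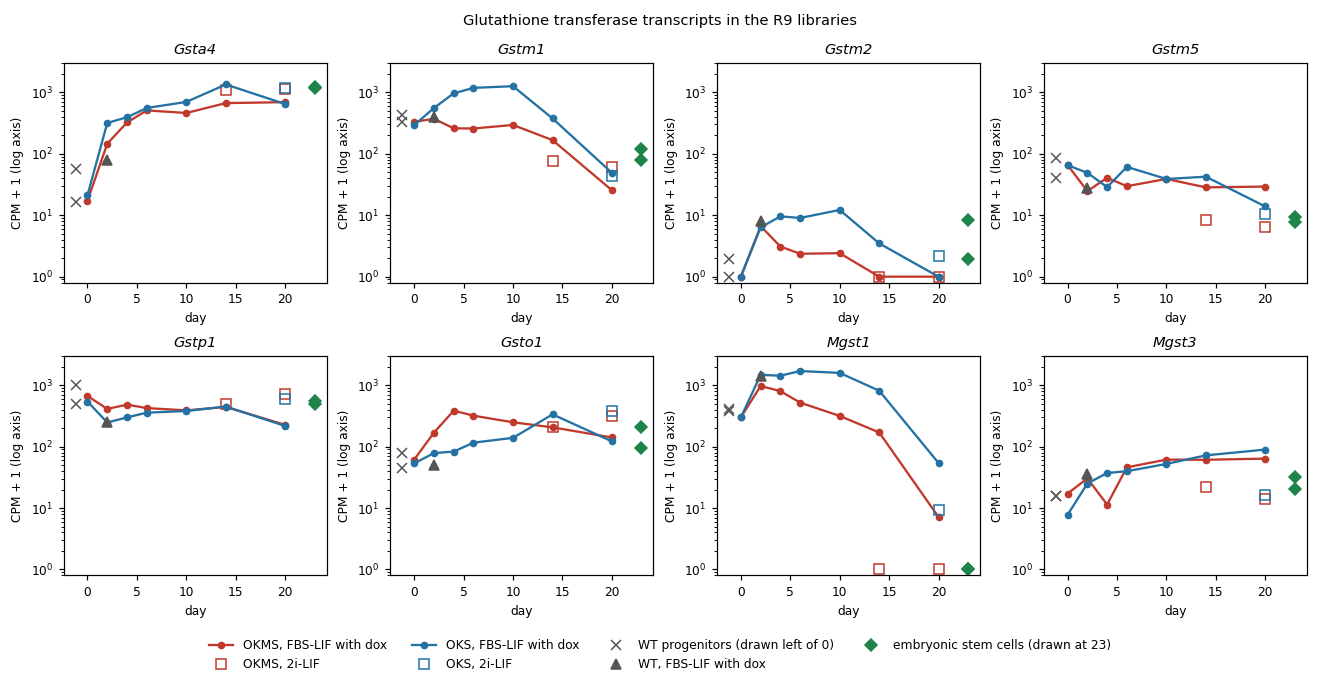
CPM (log axis) of the 8 genes in the R9 libraries from NPC (day 0) to day 20 in serum medium with doxycycline, OKMS and OKS drawn as separate lines, with ESC and WT libraries beside them. Gsta4 climbs from day 2 in both systems, Mgst1 peaks early and drops by day 20, and Gstm1 runs higher in OKS than in OKMS on every induced day.

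Of the other enzymes of the family, 1 rose and 2 fell over the days by limma (moderated F test, adjusted p under 0.05 with the largest difference from day 0 of at least 1) of 20 tested. Gstt3 was higher, with its largest difference at day 10 (4.40 ± 0.74), but would not have passed the filter on the day 0 libraries alone. Gstm7 (−4.38 ± 0.64, limma, adjusted p = 0.0149) and Gstt1 (−2.64 ± 0.65, limma, adjusted p = 0.0219) were lower. Of the genes of glutathione supply only Cth was called of 21 (3.54 ± 0.65 at day 6, limma, adjusted p = 0.0242). Of 21 peroxide-removing genes Gpx1 (2.33 at day 2), Sod3 (4.82 ± 0.79 at day 2) and Gpx3 (at 0 in both day 0 libraries) were higher and Gpx8 (−1.76) and Cat (−1.47) lower at day 20. Of the 23 genes of the Nrf2 list Nqo1 (2.15 ± 0.53, limma, adjusted p = 0.049), Sqstm1 (1.57) and Akr1b8 (4.27) were higher and Ephx1 (−3.56 ± 0.33, limma, adjusted p = 0.000167) and Me1 (−1.93) lower. Sod3, Gpx3 and Akr1b8 passed only through the induced days. Without day 20, 4 genes of these lists were called in place of 14. No share of all genes is given for that fit.

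The WT control shows what the medium and doxycycline did with no factors induced. Mgst1 read 218 and 286 CPM in the R10 WT NPC libraries (replicates 2 and 3) and 1073 and 1695 CPM after 2 days in serum medium, a difference of 2.43 ± 0.31. In R9 it read 377 and 413 CPM in WT NPC and 1435 CPM in the treated library. Gsta4 read 39.1 and 17.8 CPM in R10 WT NPC and 133 and 78.1 CPM after treatment (1.91 ± 0.45), and 54.8, 15.5 and 79.2 CPM in R9. Both genes were higher in all 3 treated libraries than in any WT NPC library of the same chemistry, which 67.6% of 14688 genes did in either direction in R10 and 79.1% of 16625 in R9.

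Mgst3 was 14.0 and 16.4 CPM in R10 WT NPC and 23.1 and 29.6 CPM after treatment (0.75 ± 0.30), and 35.4 CPM in R9 against 14.7 and 14.5 CPM. Gsto1 was 66.4 and 61.7 CPM and then 20.0 and 47.8 CPM (−1.02 ± 0.42), with overlap in R9. Gstm1 did not separate in R10 (−0.02 ± 0.33). Gstm5 overlapped in R10 (−0.67 ± 0.43), with 79.1 and 43.0 CPM in NPC replicates 2 and 3 and 49.7 and 26.4 CPM after treatment, lower within each replicate number. In R9 it was 38.7 and 84.3 CPM in WT NPC and 26.9 CPM in the treated library. Gstm2 was 0 and 0.574 CPM before and 1.17 and 3.29 CPM after in R10, and 0 and 0.968 CPM before and 7.07 CPM after in R9. In R10 Gsta4, Gsto1, Mgst1 and Mgst3 did not overlap between the groups, 4 of the 7 members besides Gstm2, which passed only through the treated libraries, against the 67.6% of all genes given above.

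Gstp1 was decided by the replicate. WT replicate 2 read 26.0 CPM in NPC and 13.3 CPM after treatment, and replicate 3 read 850 and 358 CPM. Replicate 3 was 32.6-fold above replicate 2 in NPC and 26.9-fold above it after treatment, whereas the treated level was 0.511 of the NPC level in replicate 2 and 0.421 in replicate 3. Among 14688 genes Gstp1 ranked 1 from the lowest in replicate 2 minus replicate 3 in NPC and 4 after treatment, and only Gm35082, Mmp2 and Prxl2a with it were lower in replicate 2 by at least 4 log2 units in both conditions. The R9 libraries, where the treated WT library also has the number 2, read 487 and 1018 CPM in NPC and 255 CPM after treatment. The pooled R10 difference was −1.08 ± 2.03, and with 1 library left out it ran from −3.57 (without NPC replicate 2) to 1.41 (without NPC replicate 3). Without treated replicate 2 it was 1.24 and without treated replicate 3 it was −3.41, so the sign depends on which library is left out.

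Several astrocyte markers moved with this comparison. The summed level was 1371 to 1559 CPM in R10 WT NPC, with Aqp4 at 0, and 7270 to 7468 CPM after treatment, with none at 0. Most of the rise was Aldoc (1251 ± 138 to 5024 ± 1193 CPM) and Gfap (5.44 ± 0.39 to 2036 ± 1386 CPM). S100b (58.7 ± 39.1 and 55.6 ± 52.7 CPM) and Aldh1l1 (3.72 ± 2.82 and 2.55 ± 0.817 CPM) did not rise. In R9, S100b, Aldh1l1 and Slc1a3 read below the WT NPC mean in the treated library, and Gfap, Aqp4 and Aldoc above it. The sum of 7 mesenchymal markers (Col1a1, Col1a2, Col3a1, Thy1, Acta2, Twist1, Lum) was 20.6 to 35.3 CPM and then 101 to 233 CPM, with Col1a2 at 0 throughout. The part of either in the levels above was not tested. Of the other lists, 0 of 9 further family members rose and 1 fell (Gstcd, −2.31 ± 0.64, limma, adjusted p = 0.0452), where 14.9% and 11.9% of all genes were called. Of the glutathione supply genes 3 rose and 1 fell of 20, of the peroxide-removing genes 4 and 3 of 19, and of the Nrf2 list 5 and 2 of 22. Ggt5, which cleaves leukotriene and glutathione conjugates, went from 0.302 ± 0.0217 to 110 ± 48 CPM (n = 2 each), and it passed the filter only through the treated libraries, as did Oplah (0.605 ± 0.0434 to 6.11 ± 2.55 CPM). Glrx, a glutaredoxin that uses glutathione, rose by 1.30 ± 0.21 (limma, adjusted p = 0.0103). Sod3 rose by 4.57 ± 0.32 (limma, adjusted p = 0.00151). Prdx6, a peroxiredoxin that draws on glutathione and on pi-class transferase, rose by 2.12 ± 0.33 (limma, adjusted p = 0.00958) and Gsr, which recycles oxidised glutathione, had −1.32 ± 0.34 (limma, adjusted p = 0.0365). These calls rest on 2 libraries a side, and with any 1 left out 0 to 2 genes of the 4 lists were called in place of 19.

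**Figure D3:**
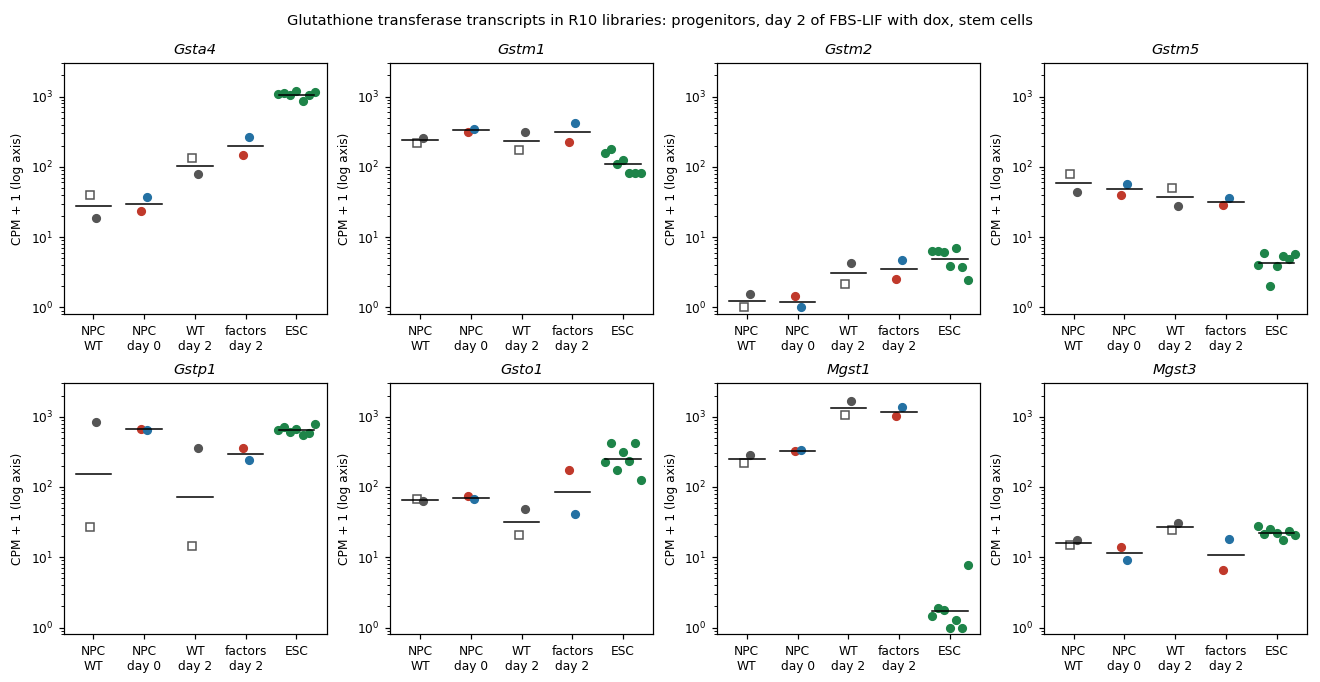
CPM + 1 (log axis) of the 8 genes in R10 libraries of WT NPC, uninduced OKMS and OKS NPC, WT at day 2 of serum medium with doxycycline, OKMS and OKS at day 2, and ESC, with a bar at the mean on the log2(CPM + 1) scale and open squares for WT replicate 2. Mgst1 is at 1018 to 1695 CPM in all 4 day 2 libraries and at 0 to 6.72 CPM in the ESC libraries, and the open squares stand far below the other points for Gstp1 alone.

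Induced factors were compared with the WT control at day 2, in the same medium. These libraries are among those the choice of the 8 genes used, so the members are described with no test. The mitochondrial share was 1.51% and 1.64% in the factor libraries and 0.319% and 0.165% in the WT libraries, and its part in the differences was not tested. Mgst1 read 1018 (OKMS) and 1357 CPM (OKS) with factors and 1073 and 1695 CPM without, a difference of −0.20 ± 0.51. Gsta4 read 147 and 268 CPM with factors and 133 and 78.1 CPM without, which did not overlap (nor did 47.2% of all genes), with a difference of 0.96 ± 0.44. Mgst3, at 5.53 and 17.2 CPM with factors and 23.1 and 29.6 CPM without, had −1.32 ± 0.60. Gsto1 was high in OKMS only, at 173 CPM against 40.3 CPM in OKS and 20.0 and 47.8 CPM in WT (1.41 ± 0.66). Gstp1 had 2.02 ± 1.10, and −0.31 without WT replicate 2. Of the 4 other lists only Cth was called by limma, where 0.740% of 15402 genes were, at 91.6 ± 58.3 CPM against 3.78 ± 2.58 CPM (4.23 ± 0.62, limma, adjusted p = 0.0195), and leaving out 1 library gave 0 or 1 called gene.

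OKMS and OKS were compared over the 6 induced R9 days, taken as pairs. The 8 genes were chosen with both series in view, so their differences between the systems are a description with no test. Gstm1 was lower in OKMS on 6 of 6 days, with log2 differences of −0.59, −1.89, −2.20, −2.10, −1.18 and −0.94 from day 2 to day 20. Its mean was 228 ± 119 CPM in OKMS and 731 ± 482 CPM in OKS, a difference of −1.48 ± 0.22. Mgst1 was also lower on 6 of 6 days, with −0.60, −0.83, −1.71, −2.33, −2.26 and −2.92, so on the log2 scale the R9 systems were farthest apart at day 20. Its means were 463 ± 372 and 1175 ± 630 CPM (−1.78 ± 0.27). Of all 14277 genes, 23.5% had the same direction in every pair, and nothing is read from the count of members beside it.

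Both genes had the same direction on each of the 3 shared R10 days. Gstm1 had −0.92, −2.30 and −0.35 at days 2, 6 and 18, a mean of −1.19, and Mgst1 −0.41, −2.93 and −2.72, a mean of −2.02. Gsto1 was higher in OKMS on 5 of 6 R9 days, from 2.21 at day 4 to −0.70 at day 14, a difference of 0.85 ± 0.29, and in R10 it was 2.08 and 3.20 at days 2 and 6 and −0.77 at day 18. Gsta4 was lower in OKMS on 5 of 6 R9 days (−0.51 ± 0.19). Gstm2 had −1.27 ± 0.47, Gstp1 0.29, Gstm5 −0.17 and Mgst3 −0.28.

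Marker sums differed in the same libraries. The mesenchymal sum was 82.5 to 592 CPM in R9 OKMS and 395 to 2476 CPM in R9 OKS, and the astrocyte sum 45.6 to 1569 CPM and 164 to 3091 CPM, with no marker at 0 in all libraries of a system. The sum of the 5 ESC markers was 63.3 to 9174 CPM in R9 OKMS and 49.1 to 7444 CPM in R9 OKS, and 3 of the 5 were called higher in OKMS by limma. Their part in the differences of Gstm1 and Mgst1 was not tested. Of the other enzymes of the family, 2 of 12 were called higher in OKMS by limma, Gstt2 (1.73 ± 0.61) and Gsta3 (1.52 ± 0.42), neither of which would have passed the filter on the OKS libraries alone, and 2 lower, Gstt1 (−2.14 ± 0.34, limma, adjusted p = 0.00143) and Gstm7 (−1.38 ± 0.33, limma, adjusted p = 0.00904). By the same rule 990 of all 14277 genes (6.93%) were called higher in OKMS and 1577 lower, so 38.6% of all calls were higher, or 53.8% with median centring. All called genes of the remaining lists were lower in OKMS. They were Glrx (−1.01) of 20, Gpx8 (−1.94), Sod3 (−1.86) and Prdx5 (−1.29) of 21, and Maff (−1.56), Fth1 (−1.40) and Nqo1 (−1.29) of 23. Of the 11 called genes 6 also had the same direction in every pair (Gsta3, Gstm7, Gstt1, Gpx8, Prdx5 and Nqo1). Those 6 are out of 76 tested genes of the 4 lists. Of all 14277 tested genes 11.9% met both rules, and nothing is read from the count. In the 3 R10 pairs none of the listed genes was called. No share of all genes is given for those pairs, so nothing is read from this.

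**Figure D4:**
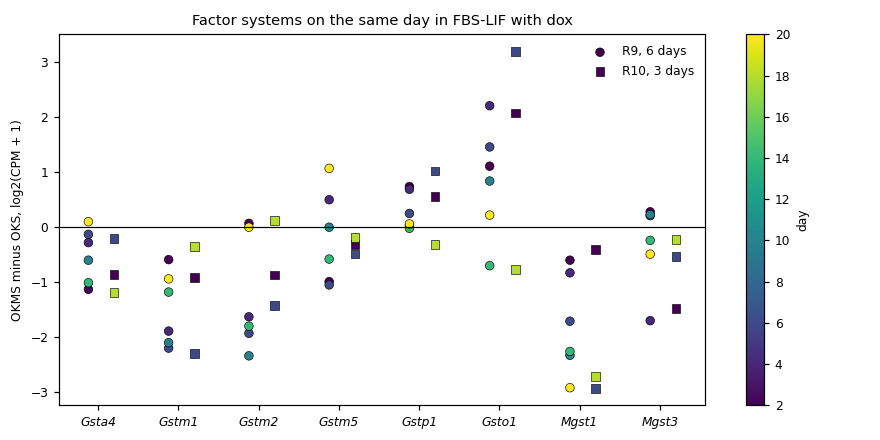
Difference in log2(CPM + 1) between OKMS and OKS for each of the 8 genes, 1 point per day, with R9 and R10 marked apart. All points of Gstm1 and Mgst1 lie below 0, and those of Gsto1 lie above 0 apart from day 14 in R9 and day 18 in R10.

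Late cultures in 2i-LIF were compared with those kept in serum medium with doxycycline, in 5 pairs of the same system, day and chemistry. Mgst1 was 169, 6.16 and 53.2 CPM in serum medium (R9 OKMS day 14, OKMS day 20, OKS day 20) and 0, 0 and 8.15 CPM in 2i-LIF. In R10 it was 31.2 and 211 CPM in serum medium and 0 and 18.8 CPM in 2i-LIF. It was lower in 5 of 5 pairs, a difference of −4.25 ± 0.55. Only 2 of the 2i-LIF libraries reached 1 CPM, so the gene passed the filter through the serum libraries, which favoured a difference. Mgst3 went from 54.9 to 88.4 CPM in serum medium to 10.9 to 21.2 CPM in 2i-LIF, also in 5 of 5 pairs and with no overlap (−1.99 ± 0.26).

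Gstp1 was higher in 5 of 5 pairs, from 216 to 442 CPM in serum medium to 498 to 716 CPM in 2i-LIF (1.11 ± 0.19). The smallest step was the R9 OKMS day 14 pair, 442 and 498 CPM. Gstm5 was lower in 5 of 5 pairs, at 12.9 to 28.3 CPM in serum medium and 3.13 to 9.31 CPM in 2i-LIF (−1.67 ± 0.38). Gsta4, at 383 to 872 CPM in serum medium and 927 to 1184 CPM in 2i-LIF, was higher in 5 of 5 pairs (0.77 ± 0.16), and Gsto1 likewise (0.75 ± 0.20). Gstm2 was too low to pass the filter. The direction was the same in every pair for 22.7% of all 14935 genes, and because the serum libraries were in view when the members were chosen, nothing is read from the members' count.

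Gstm1 was lower in 2i-LIF in 4 of 5 pairs (−0.77 ± 0.35), and the R9 OKMS day 20 pair, 24.6 CPM in serum medium and 60.2 CPM in 2i-LIF, went the other way. Without that pair it had −1.28, and Gstp1 then had 0.97. In the R10 pairs alone Gstm1 had −1.89 and in the R9 pairs −0.02. The mesenchymal sum was 75.7 to 437 CPM in serum medium and 12.3 to 25.0 CPM in 2i-LIF, where Col1a2 was at 0, and the astrocyte sum 45.6 to 385 CPM and 36.1 to 84.6 CPM. Of the 5 ESC markers, 3 were called higher in 2i-LIF by limma and 0 lower. Nanog was at 262 ± 36.8 CPM in serum medium and 1204 ± 128 CPM in 2i-LIF, and Pou5f1 at 1088 ± 309 and 1114 ± 202 CPM (n = 5 each). The part of these markers in the differences was not tested.

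Of the other family members 5 of 18 rose and 5 fell in 2i-LIF by limma, where 5.95% and 6.32% of all genes did. Gsta3 (2.75 ± 0.46, limma, adjusted p = 0.00059) and Ptges (2.74 ± 0.35, limma, adjusted p = 4.61e-05) rose. Gsta2, at 0.246 ± 0.551 CPM in serum medium and 11.7 ± 7.3 CPM in 2i-LIF (n = 5 each), passed only through 2i-LIF, and Gstt1, at 13.2 ± 10.4 and 1.48 ± 1.5 CPM, only through serum medium. Of the 11 that passed in both groups 4 rose and 2 fell. The share of all genes that passed in both groups is not given, so nothing is read from these counts. Of the glutathione supply genes 4 of 21 rose and 0 fell, namely Gss (1.98 ± 0.21), Chac1 (1.57 ± 0.41), Glrx (1.36 ± 0.29) and Gsr (1.18 ± 0.21). Of the peroxide-removing genes 4 of 20 rose, namely Gpx7 (1.59), Cat (1.45), Gpx1 (1.32) and Sod2 (1.31), and Gpx8 fell (−1.81). Of the Nrf2 list Cbr3 (2.36) and Abcc5 (1.01) rose and Mafk (−1.89) and Ephx1 (−1.76) fell, of 23, and Maff (−2.95) passed only through serum medium.

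**Figure D5:**
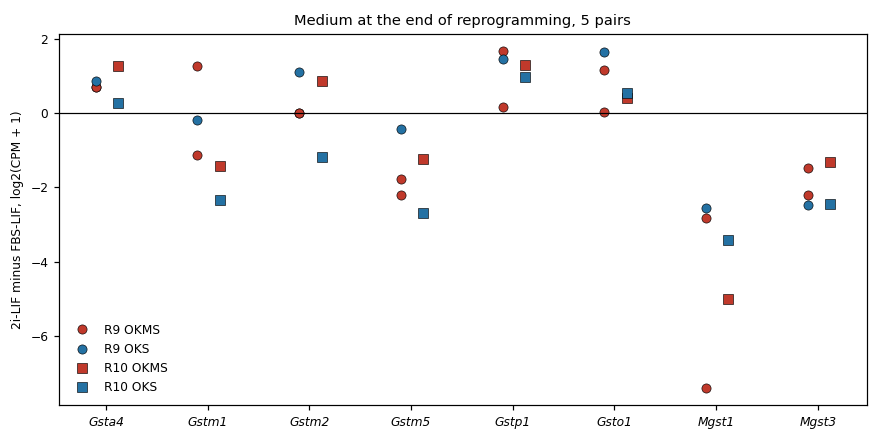
Difference in log2(CPM + 1) between 2i-LIF and serum medium with doxycycline for the 8 genes, 1 point per pair, circles for R9 and squares for R10, red for OKMS and blue for OKS. All 5 points of Mgst1, Mgst3 and Gstm5 lie below 0 and all 5 of Gsta4 and Gstp1 above it, and Gstm1 has points on both sides.

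Reprogrammed cells in 2i-LIF were compared with stem cells. In R10 (2 libraries against 7) Gsta4 read 927 and 1043 CPM against 871 to 1198 CPM, and Gstp1 read 638 CPM in both against 547 to 779 CPM. Gstm1 read 44.1 and 29.7 CPM against 79.5 to 176 CPM, below every ESC library, a difference of −1.58 ± 0.30, and −1.30 without the OKS library. The ESC libraries were in view when the members were chosen, so no test is given. Some members were low and overlapped between the groups. They were Gstm2 at 1.76 ± 2.49 CPM against 4.18 ± 1.76 CPM, Gstm5 at 5.97 ± 4.02 against 3.58 ± 1.37 CPM and Mgst1 at 9.39 ± 13.3 against 1.31 ± 2.41 CPM. The differences of Gstm5 and Mgst1 changed sign with 1 library left out.

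In R9 (3 libraries against 2) Gstm1 was at 75.7, 60.2 and 41.9 CPM against 78.6 and 120 CPM (−0.74 ± 0.26), again below both ESC libraries. Gsto1 was at 208, 315 and 376 CPM against 95.6 and 204 CPM (1.05 ± 0.29), above both, and Gstm2 had −1.65 ± 0.73. Mgst1 was at 0, 0 and 8.15 CPM against 0 in both ESC libraries and was too low to pass the filter. Of the 4 other lists limma called 8 genes in R10, where 9.06% of 15880 genes were called, and edgeR 4. The 2 reprogrammed libraries were the shallowest R10 ones, and in simulated data with the same depths limma made 507 false calls of 15818 genes in this comparison against 8 by edgeR. The 8 genes limma called were Gsta2 (2.49), Alox5ap (1.36), Chac1 (2.28) and Gpx4 (1.10), higher in the reprogrammed cells, and Gstm3 (−1.86), Gstk1 (−1.37, passing only through ESC), Nqo1 (−1.13) and Ugdh (−1.06), lower. None of these 8 was called in R9, where Gsta2 (−0.76), Chac1 (−0.37) and Gpx4 (−0.15) had the opposite sign and Alox5ap (0.86), Gstm3 (−1.64), Gstk1 (−0.27), Nqo1 (−0.47) and Ugdh (−0.66) the same. In R9 1 gene was called, where 0.711% of 15479 genes were, Prdx6 (1.37 ± 0.15, limma, adjusted p = 0.000897), and with any 1 library left out none was.

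The long reads show which transcripts carried these levels. The main deposited Gsta4 transcript has 8 exons and 1172 bases, starts at chr9:78190970, has a splice site not in the annotation and an open reading frame of 222 codons. In libraries with at least 20 TPM it carried 87.3% ± 6.28 (SD, n = 4) of Gsta4 TPM in R10 NPC and 72.9% ± 3.67 (n = 7) in R10 ESC, and 68.6% in R9 ESC. A transcript with 6 exons and 1069 bases that starts farther in, at chr9:78198060, with an open reading frame of the same 222 codons, carried 2.28% ± 1.52 in R10 NPC, 8.74% ± 1.46 in R10 ESC and 11.7% ± 0.401 (n = 2) in R9 ESC. These shares were not tested, and a read that ends early on a longer transcript can be counted to the shorter one.

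For Gstm1, Gstp1 and Mgst3, 1 transcript each carried the largest share in NPC and in ESC. That of Gstp1 was a reference match of 821 bases. Gsto1 had 80.6% ± 1.09 (n = 4) in R10 NPC and 80.2% ± 2.43 (n = 7) in R10 ESC on a reference match of 1176 bases and 240 codons, with 17.3% and 16.0% on an 879-base transcript of 207 codons. In R9 NPC the longer one had 64.8% ± 20.8 (n = 4), from 40.2% to 84.0%, and the shorter one 33.5% ± 18.8, up to 53.8%. The main Gstm1 transcript starts 97 bases before the annotated gene start and that of Mgst1 145 bases before it. The main Gstm5 transcript has 9 exons and starts 7724 bases before the annotated gene start, and carried 83.6% ± 3.36 (n = 4) of Gstm5 TPM in R10 NPC. The main Gstm2 transcript of 420 bases was classed as noncoding by the authors' annotation.

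Across libraries Mgst1 went with Gstm1 (Pearson r = 0.83 over 22 R9 libraries and 0.71 over 23 R10 libraries) and with Gstm5 (0.83 and 0.86), and Gsta4 was opposite to Gstm5 (−0.63 and −0.79). These libraries share time courses and cell lines, so the values are a description. By the same measure the genes most like each member over the R9 libraries were named, each with its R10 value. Mgst1 was closest to Tmem176b (0.99 and 0.99), BC064078 (0.98 and 0.95) and Mxd4 (0.98 and 0.94). Gsta4 was closest to Cd9 (0.96 and 0.95), Sik1 (0.95 and 0.88) and Agtrap (0.95 and 0.89). Gstm1 was closest to Naxd (0.96 and 0.79), Retreg2 (0.95 and 0.83) and Tbc1d9b (0.95 and 0.59), and Gsto1 to Avpi1 (0.85 and 0.71), Cavin3 (0.84 and 0.63) and Cth (0.84 and 0.79).

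Gstm5 was closest to Fundc2 (0.93 and 0.85), Glul (0.92 and 0.15) and Gbe1 (0.92 and 0.83), and Mgst3 to Skil (0.86 and 0.45), Flywch2 (0.85 and 0.65) and 1190005I06Rik (0.82 and 0.41). Gstp1 was closest to Galnt7 (0.81 and 0.25), Rtkn (0.81 and 0.24) and Dhcr7 (0.79 and 0.04), and Gstm2 to Lamb2 (0.89 and 0.35), Il6st (0.89 and 0.26) and Slc49a4 (0.88 and 0.11).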

How the data were processed

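Long-read RNA libraries of mouse cells were analysed from the deposited tables, 22 R9 and 23 R10. The gene table holds CPM, which the authors deposited per gene and library. In every library the deposited CPM were whole multiples of 1 read (100% of values within 0.02), so read counts were recovered from the authors' CPM for the alternatives with edgeR and DESeq2. The transcript table holds TPM of 276608 transcripts, as deposited by the authors. Alignment used minimap2 2.24-r1122 to mm10, per the submitters' processing notes, and the strand setting and counting rule are not given in the sources used here. The 13 columns that matched no sample label were not used, and 20 gene names in the deposited table had been turned into numbers.

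Differences were fitted with limma 3.58.1 (R 4.3.3, lmFit and eBayes with trend) on log2(CPM + 1), over genes that reached 1 CPM in a number of libraries no lower than the size of the smaller group. Fold changes are on that scale, which understates the change of low genes. A call needs a Benjamini-Hochberg adjusted p under 0.05 and an absolute difference of at least 1, two-sided. R9 and R10 were fitted apart except for the 2i-LIF pairs, where the pair was a block. On simulated data with known changes limma recovered 95% to 100% of 4-fold changes, except 0% in the R9 medium comparison with its 1 treated library, so limma's calls there are given only as counts among the alternatives. The changes were planted only in well expressed genes, with a small fixed spread between libraries. The recovery therefore does not cover low genes or genes with a wider spread, and a gene not called may still have changed. DESeq2 1.42.0 and edgeR 4.0.16 served as alternatives, besides other filters, pseudocounts, scalings and left-out libraries. Pairwise coding identity, motif searches and figures used Python 3.11.15.

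The 8 genes and the gene lists were chosen with earlier results of these data known. Of each list the text names at most 4 called genes per comparison, those with the largest difference, or all where 5 or fewer were called. Gstt1 in stem cells, and the other genes named to show what the filter on low values did, were added after their values were seen. For each of the 8 genes it names the 3 with the highest Pearson r over the R9 libraries, among genes with at least 1 CPM in at least 11 of them and a maximum of at least 10 CPM. Of 87 listed pathway genes 85 were present. The marker sums add CPM over each list. The progenitor marker sum is not reported here. The neuron marker sum (4 of 5 genes present) was 224 to 414 CPM in R10 NPC and 39.6 to 135 CPM in R10 ESC libraries, with Map2 at 321 ± 85.6 CPM (n = 4) and 0.893 ± 0.771 CPM (n = 7) and Tubb3 the other way, at 3.41 ± 0.909 and 68.0 ± 31.5 CPM. The 8 genes were to be tested in the comparisons the choice did not name, but each shares libraries with those in view when they were chosen, so no p is given for them. A gene is said to have passed the filter only through 1 group where the other group alone would not have passed it.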

Additional observations from a re-analysis of the deposited data

Results flagged for a closer look

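In 6 of 24 sets of 4 to 7 libraries (each of the 8 genes in R9 NPC, R10 NPC and R10 ESC), 1 library stood apart from the others by Dixon's measure of the gap over the range. The measure served only to pick out values to describe. These sets pool cell lines and genotypes and were in view when the genes were chosen, so no chance rate is set beside the count. Gstp1 in R10 NPC was 26 CPM in WT replicate 2, with the other 3 at 655 to 850 CPM, and the treated library of the same replicate number was low too. Mgst1 in R10 ESC was 6.72 CPM in the R1 library without a number, with the other 6 at 0 to 0.896 CPM. Gsta4 in R10 ESC was 871 CPM in R1Clone3 replicate 1, with the others at 1045 to 1198 CPM. Gstm5 in R10 ESC was 1.04 CPM in R1 replicate 1, with the others at 2.95 to 4.93 CPM. Mgst3 in R9 NPC was 6.75 CPM in the OKS library, with the others at 14.5 to 16.2 CPM. Gstm2 in R9 NPC was 0.968 CPM in WT replicate 2, with the others at 0. That value is 1 read, and with the others at 0 the gap is the whole range by construction. The causes were not tested.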

How the results depend on the processing

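Counts of called genes in the 4 pathway lists are given with the alternative beside them, and the causes of the changes were not tested. No share of all genes is set beside the alternatives, so nothing else is read from these counts. Stem cells against NPC in R10 gave 39. No count is given for the R1 library without a number against WT NPC, because 1 of its groups held 1 library. The R10 medium comparison gave 19, 0 to 2 with 1 library left out, and 25 with the replicate number as a block. Across genes, the replicate 2 minus replicate 3 differences in NPC and after treatment had a Pearson r of 0.47. A shared number was not established as a shared culture. The R9 medium comparison gave 3, and 0 at a minimum of 5 CPM, 1 with median centring, 15 with edgeR, 9 with DESeq2 and 13 with all 4 NPC libraries, and leaving out 1 library was not possible there. The time course gave 14, and 35 with edgeR, 23 with DESeq2 and 4 to 17 with 1 day left out. Factors at day 2 gave 1, and 0 with quantile scaling, 5 with median centring, 3 with edgeR, 5 with DESeq2, 0 in R9 and 0 to 1 with 1 library left out. OKMS against OKS gave 11, 0 in the R10 pairs and 10 to 16 with 1 day left out. The 2i-LIF comparison gave 24, 15 in R9 pairs, 6 in R10 pairs and 20 to 26 with 1 pair left out. Reprogrammed cells against ESC in R10 gave 8, and 5 with quantile scaling, 4 with edgeR, 5 with DESeq2 and 5 to 10 with 1 library left out, and in R9 1, 2 with edgeR and 0 with 1 library left out.

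Of the 8 genes, differences that changed sign at day 2 were those of Gstm2 (0.00 with median centring, −0.31 in R9, −0.24 without OKS, −0.30 to 0.68 with 1 library left out), Gstm5 (0.32 in R9, 0.23 without WT replicate 2 and −0.66 without WT replicate 3), Mgst1 (0.01 without OKMS, −0.53 without WT replicate 2 and 0.13 without WT replicate 3), Gstm1 (−0.05 without OKS, −0.02 without WT replicate 2 and 0.87 without OKMS) and Gstp1 (−0.31 without WT replicate 2 and 4.34 without WT replicate 3). Between OKMS and OKS it was Gstm5 (0.00 without day 6 and −0.42 without day 20). Against ESC in R10 these were Gstp1 (0.03 with median centring, 0.01 with DESeq2, 0.02 without the R1 library without a number, −0.06 to 0.02 with 1 library left out, 0.00 without O4G replicate 2), Gstm5 (−0.08 without OKMS and 1.17 without OKS) and Mgst1 (−0.80 without OKS and 3.50 without OKMS), and in R9 Gstm5 (0.00 with quantile scaling, 0.05 with median centring, −0.21 to 0.13 with 1 library left out, 0.10 without R1) and Gsta4 (0.02 with median centring).

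Scaling moved the share of calls that were higher in the R9 medium comparison from 94.2% to 78.4% (quantile) and 32.7% (median centring), at day 2 from 96.5% to 72.4% (median centring), between OKMS and OKS from 38.6% to 53.8%, and in R9 against ESC from 60.9% to 75% (quantile). By smaller steps the majority turned in the R10 medium comparison (55.7% to 46.5% with quantile scaling and 48% with median centring), in stem cells against NPC in R10 (48.8% to 58.2%) and R9 (48.9% to 55%) with median centring, in the 2i-LIF comparison (48.5% to 54.6%) and in R10 against ESC (47.3% to 56.1% with quantile scaling). Median centring shifted the median of all genes by −1.08 in the time course. The OKMS against OKS differences of Gstm1 ran from −1.66 to −1.19 and those of Mgst1 from −2.02 to −1.55. Gstm5, Gstp1 and Mgst3 had the same direction in all 5 of the 2i-LIF pairs. Their direction in the R9 or R10 pairs alone could therefore not differ, and nothing is read from it. Against ESC, Gstm2 in R10 had −2.29 without OKMS, and Gsto1 in R9 had 1.05 at a minimum of 5 CPM, 1.15 with median centring and 1.04 with edgeR.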
